A study of Mus musculus with 2 samples.

Results

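Metallothioneins are small proteins rich in cysteine that bind zinc and copper, and the genes described here are Mt1 and Mt2, the metal-binding pair, Mtf1, the zinc-sensing transcription factor that switches them on, and Slc30a1, a zinc exporter of the plasma membrane that the same factor drives. They are 4 of the 32285 genes in the matrices and were taken by symbol, with a single row for each. They were proposed for description with results of these data known, among them the low Mt1 ratio, so their differences between the treatments are given as descriptions. Free zinc lets Mtf1 bind metal response elements, short motifs in the promoters of metallothionein genes, and the metallothioneins made in turn hold the metal. In many tissues Mt1 and Mt2 also answer to glucocorticoids, oxidants and low oxygen.

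The cells were mouse hematopoietic stem cells, labelled as blood, grown in suspension with either RO-3066 or the solvent dimethyl sulfoxide (DMSO) over 48 h, then profiled by droplet sequencing of transcript 3' ends. The labels state neither strain, age, dose and number of animals nor what RO-3066 acts on. There were 2 libraries, 1 for each condition, so the differences described have no replicates behind them and were not tested. Intervals are 95% exact intervals of counting error only. After filtering, 5832 DMSO cells with a median of 24040 UMIs (unique molecular identifiers, tags that count captured transcripts once) and 3680 RO-3066 cells with a median of 34767.5 UMIs remained, and the libraries shared 6 cell barcodes. Levels are CPM, a gene's UMIs summed over cells and scaled to a common library total in the usual way. The stem cell genes Kit (68.6 CPM in DMSO and 101.9 in RO-3066), Hlf (60.9 and 72.4) and Mecom (65.2 and 67.5) were present, while Procr was at 4.57 and 4.27. Of the markers of other cells, Csf1r of monocytes (0.029 and 0.067 CPM) and Cdh5 of endothelium (0.27 and 0.23) were near 0. Others were present in both libraries, the erythroid markers Car2 (309 and 406) and Hbb-bt (195 and 447) at the highest levels among those named here. Also present were Prtn3 (96.3 and 70.4) and Lyz2 (43.3 and 69.1) of neutrophils and monocytes. So were the lymphoid marker Nkg7 (38.98 and 65.05) and Pecam1 of endothelium (23.3 and 28.7).

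Mt2 (ENSMUSG00000031762, chromosome 8, 94172664 to 94173568, plus strand, GENCODE vM21 on mm10) and Mt1 (ENSMUSG00000031765, 94179082 to 94180327, plus strand) are neighbours with 5513 bases between them. Mtf1 (ENSMUSG00000028890) lies on chromosome 4 at 124802104 to 124849800 and Slc30a1 (ENSMUSG00000037434) on chromosome 1 at 191906767 to 191913247. The upstream sequences of Mt1 and Mt2 are shown because these neighbours moved together between the libraries and because their promoters are where Mtf1 acts. They come from the RefSeq promoter windows of build GRCm38.p6, which run from 250 bases before to 50 after the annotated start and were found for 4 of the 4 genes, and are cut before the first base annotated as transcript. Capitals mark the core of the metal response element, searched as TGCACNC and TGCGCNC on both strands.
Mt1, chr8:94178839-94179081, plus strand: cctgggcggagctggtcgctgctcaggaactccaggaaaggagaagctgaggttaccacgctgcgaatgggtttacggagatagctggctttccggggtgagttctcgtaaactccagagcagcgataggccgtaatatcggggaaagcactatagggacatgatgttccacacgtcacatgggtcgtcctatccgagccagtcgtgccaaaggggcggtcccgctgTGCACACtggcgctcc
Mt2, chr8:94172368-94172617, plus strand: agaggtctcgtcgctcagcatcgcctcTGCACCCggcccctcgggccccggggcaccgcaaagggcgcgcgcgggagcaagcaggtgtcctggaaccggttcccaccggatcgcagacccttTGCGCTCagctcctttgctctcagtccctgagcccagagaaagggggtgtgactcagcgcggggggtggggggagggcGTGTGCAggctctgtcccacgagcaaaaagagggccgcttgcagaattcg
Just past the outermost annotated start of Mt1, a stretch of 25 bases at chr8:94179091-94179115 held a further pair of cores.
Mt1 start: TGCACTCcgcccgaaaagTGCGCTC
In the full window of 300 bases Mt1 had 3 matches, all on the plus strand, and Mt2 had 4, of which 2 were on the minus strand and read GTGTGCA and GTGCGCA on the plus strand. Slc30a1 had 2 and Mtf1 had 0 in the window searched. Of 32851 promoter windows of this length, 25.7% held at least 1 match, 7.11% at least 2, 1.97% at least 3 and 0.517% at least 4. A match is only a run of letters and no measured site. Further annotated transcripts start at 94179211 and 94179241 for Mt1 and at 94172860 for Mt2. The windows end at 94179138 and 94172667, so the bases just before those inner starts were not searched.

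Both metallothioneins were lower in the RO-3066 library, Mt2 by the larger factor, while the sensor Mtf1 and the exporter Slc30a1 stayed within 1.2-fold. Mt1 was at 341 CPM in DMSO (338 to 344, 59733 UMIs) and at 112 CPM in RO-3066 (111 to 114, 18402 UMIs), 0.330-fold (0.324 to 0.335). Mt2 was at 13.2 CPM in DMSO (12.6 to 13.7, 2305 UMIs) and at 1.40 CPM in RO-3066 (1.22 to 1.59, 229 UMIs), 0.106-fold (0.0924 to 0.122). Summed over all cells, the pair therefore differed in balance, with 25.9 UMIs of Mt1 for each of Mt2 in DMSO and 80.4 in RO-3066. Mt1 and Mt2 are close copies in their coding part, and reads that match both can be lost or split in counting.

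Mtf1 stood at 19.4 CPM in DMSO (18.8 to 20.1) and 19.3 CPM in RO-3066 (18.6 to 19.99), 0.993-fold (0.945 to 1.04). Its transcript level thus lay within counting error of no difference, although the level says nothing of how much of the protein is bound to DNA. The 3' end of Mtf1 overlaps 1110065P20Rik on the other strand (36.6 and 33.4 CPM), and whether the counting used strand is not stated. Slc30a1 was at 3.16 CPM (2.91 to 3.44, 554 UMIs) and 2.69 CPM (2.45 to 2.96, 441 UMIs), 0.852-fold (0.75 to 0.967). The target of Mtf1 outside the metallothioneins therefore stood slightly lower, by far less than Mt1 or Mt2, and was rare in both libraries. With equal weight for groups of cells by Mki67 plus Top2a level its log2 ratio went from -0.17 to 0.0042, so it has no firm direction.

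Of the 4 genes only Mt1 reached 20 CPM in either library, the minimum for counting genes changed 2-fold. Over all 5764 genes that did, 41 (0.711%) were at least 2-fold lower and 39 (0.677%) at least 2-fold higher in RO-3066, and median-ratio scaling in place of library totals gave 34 and 51. Mt1 ranked 9 from the lowest ratio. Its place there is what brought it into view and is no support. At the limit itself, Hist1h3c lay just inside (0.497-fold) and Hist1h3b just outside (0.50025-fold), both histone genes. The median log2 ratio of CPM plus 1 over these genes was -0.057, against -1.59 for Mt1.

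Per cell, Mt1 was found in fewer RO-3066 cells and at lower counts. Since depth per cell differed, each cell was thinned at random to 10000 UMIs, and cells shallower than that (81 of DMSO and 124 of RO-3066) were left out. Of 5751 DMSO cells 67.0% then held a Mt1 UMI (65.8 to 68.3), against 44.4% of the 3556 cells from RO-3066 (42.7 to 46.0). Without thinning the shares were 80.1% and 66.96%. The Mt1 count of a cell had a median of 1, a 90th percentile of 7 and a maximum of 44 in DMSO, and a median of 0, a 90th percentile of 3 and a maximum of 12 in RO-3066. At least 8 UMIs were held by 532 DMSO cells (9.25%, 8.51 to 10.03) but by 11 RO-3066 cells (0.309%, 0.155 to 0.553). The upper tail of DMSO cells was thus nearly missing in RO-3066, whereas a single Mt1 UMI was held by 18.8% of DMSO and 22.4% of RO-3066 cells, as the histograms of counts per cell show.

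**Figure D1:**
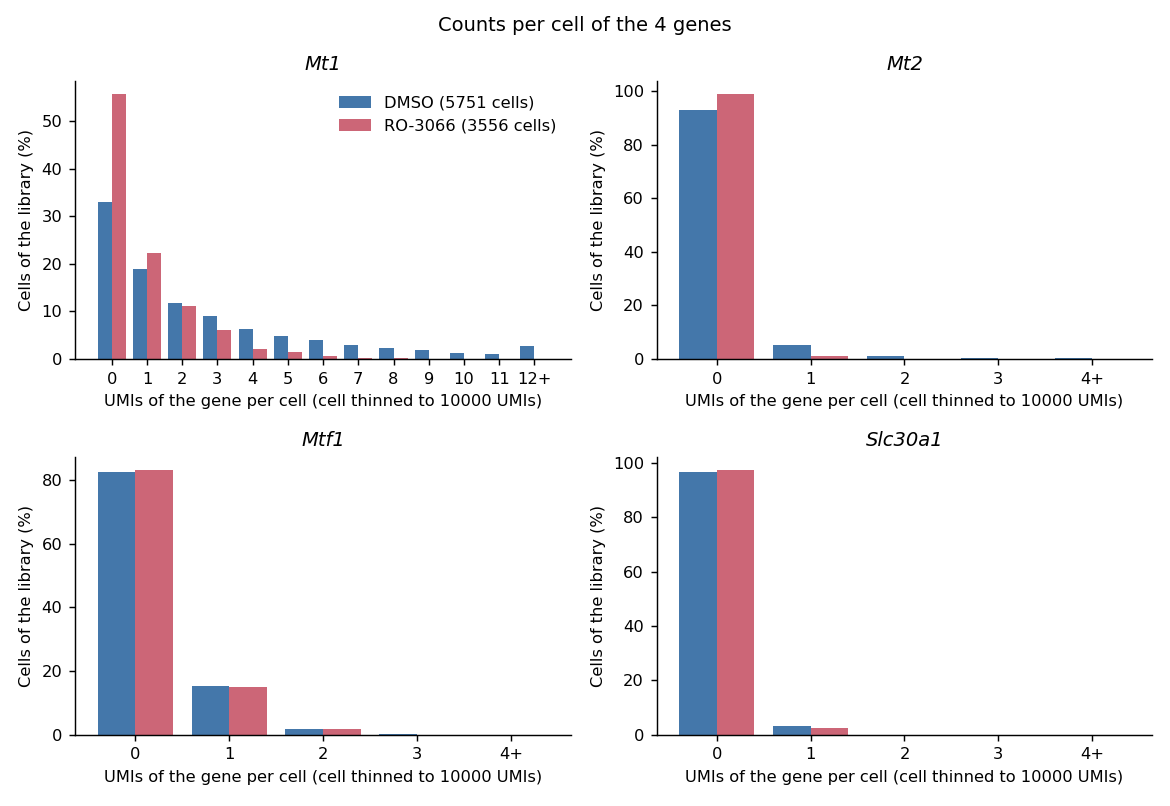
UMIs of Mt1, Mt2, Mtf1 and Slc30a1 per cell (x axis) against the percent of cells of each library (y axis), in cells thinned to 10000 UMIs, 5751 from DMSO and 3556 from RO-3066; the last bar of each panel holds that count and above. Mt1 bars of DMSO reach 12 and more UMIs, whereas 55.6% of RO-3066 cells had none.

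Mt2, Mtf1 and Slc30a1 were caught in a minority of cells. For Mt2 the thinned share was 7.23% in DMSO (6.58 to 7.93) and 1.18% in RO-3066 (0.853 to 1.59), and unthinned 14.8% and 4.73%. Nearly all Mt2 cells also held Mt1 in DMSO, with 398 cells holding both and 18 Mt2 alone, while in RO-3066 31 held both and 11 Mt2 alone. For Mtf1 the shares were 17.4% (16.4 to 18.4) and 16.8% (15.6 to 18.1), and unthinned 38.4% and 48.9%, so that the order of the libraries turned with depth. For Slc30a1 they were 3.37% (2.92 to 3.87) and 2.50% (2.01 to 3.07), and unthinned 8.93% and 10.4%. No cell class here is known to lack these genes, so the part of free RNA in the shares was not tested.

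The spread of Mt1 between cells went well beyond counting. Its Fano factor, the variance over the mean, which is 1 for pure counting error, was 4.42 in DMSO and 2.04 in RO-3066. Among genes with a mean count within 2-fold of that of Mt1, the median factor was 1.11 in DMSO (929 genes, of which 5 were above Mt1) and 1.06 in RO-3066 (2417 genes, of which 21 were above it). The top 10% of cells held 39.9% of Mt1 UMIs in DMSO and 45.8% in RO-3066. With counting error removed, the coefficient of variation was 1.14 and 1.09, so the relative spread was alike although the mean was lower. Mt2 had a factor of 1.96 in DMSO and 1.43 in RO-3066, where it rests on 42 cells with a UMI and was 0.994 when cells were thinned to 5000 UMIs and 1.27 at 15000. Mtf1 was at 1.07 in DMSO and 1.02 in RO-3066, and Slc30a1 at 0.986 and 0.997. Mt1 in both libraries and Mt2 in DMSO were thus more unevenly shared between cells than Mtf1 and Slc30a1, and the RO-3066 counts of Mt2 are too few to place it.

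Mt1 rose with the share of a cell's UMIs taken by Pf4, platelet factor 4, a chemokine of platelet granules that marks the megakaryocyte line. Cells were put in 5 groups by this share at the DMSO quintiles, 0.0174%, 0.0356%, 0.0953% and 0.384%. These are ranges and no cell types, and 183 DMSO and 71 RO-3066 cells lay within 10% of the uppermost limit. In DMSO, Mt1 was at 100.1, 134, 182, 345 and 598 CPM from the lowest to the highest group, a 5.97-fold span. In RO-3066 it was at 51.7, 64.8, 85.9, 137 and 163 CPM, a 3.16-fold span. Mt1 thus climbed in the same order in both libraries, and the RO-3066 level was below the DMSO level in 5 of 5 groups. The ratio was 0.516 (0.484 to 0.55) in the lowest group, then 0.483, 0.472 and 0.398, and 0.273 (0.267 to 0.28) in the highest. The gap between the libraries was therefore widest among the cells richest in Pf4, and without replicates that change of ratio was not tested. The thinned share of cells with Mt1 ran from 43.5% to 95.8% in DMSO and from 27.6% to 73.1% in RO-3066.

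**Figure D2:**
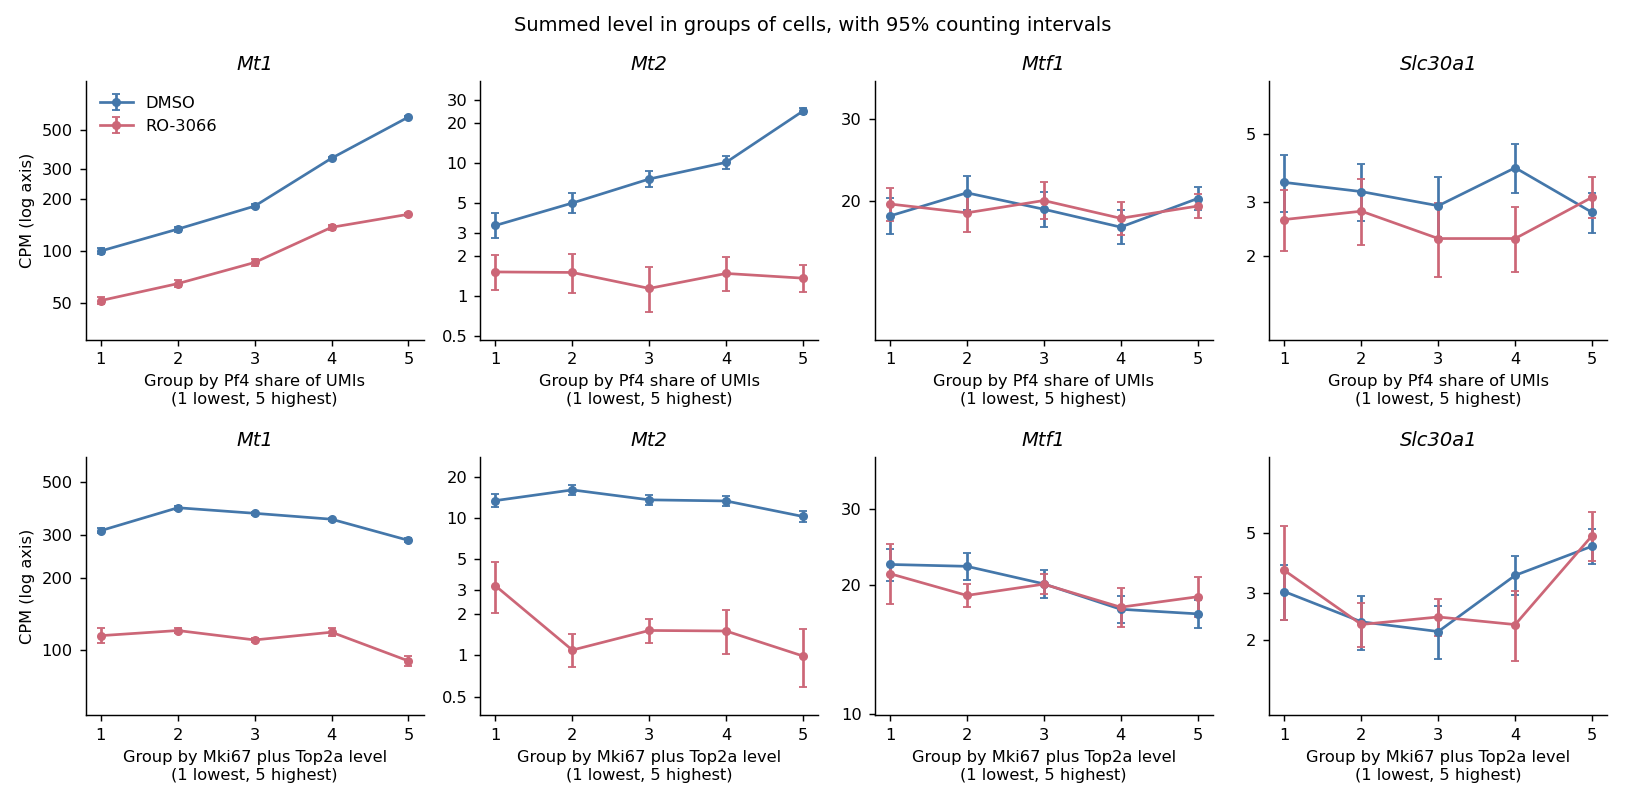
CPM on a log axis of the 4 genes in 5 groups of cells by Pf4 share of UMIs (top row) and by Mki67 plus Top2a level (bottom row), DMSO in blue and RO-3066 in red, bars showing 95% counting intervals. Mt1 climbed with Pf4 in both libraries, Mt2 climbed to 24.6 CPM in DMSO but stayed between 1.14 and 1.52 CPM in RO-3066, and Mtf1 was level.

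Mt2 climbed with the Pf4 share in DMSO and showed no such order in RO-3066, a contrast that was not tested. In DMSO it was at 3.39, 5.003, 7.59, 10.1 and 24.6 CPM over the 5 groups. In RO-3066 it was at 1.52, 1.502, 1.14, 1.48 and 1.36 CPM, with counting intervals that all overlapped. The ratio went from 0.447 (0.305 to 0.647) in the lowest group to 0.0552 (0.0432 to 0.0696) in the highest, where 1556 UMIs in DMSO stood against 75 in RO-3066. Whether those few RO-3066 UMIs came from the cells or from free RNA was not tested. In the lowest group there were 29.5 UMIs of Mt1 for each of Mt2 in DMSO and 34.1 in RO-3066. In the highest there were 24.2 and 120, so the balance of the pair differed mainly in cells rich in Pf4.

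Mtf1 showed no order with Pf4, lying between 17.6 and 20.8 CPM in DMSO and between 18.4 and 20.04 in RO-3066. Slc30a1 lay between 2.77 and 3.87 CPM in DMSO and between 2.28 and 3.10 in RO-3066, and the fourth group alone had a ratio interval below 1 (0.589, 0.433 to 0.796). Neither gene climbed with Pf4 as Mt1 did in both libraries and Mt2 did in DMSO.

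Depth per cell moved with these groups. Cells of the highest Pf4 group were deeper, with medians of 36549 (DMSO) and 82369 UMIs (RO-3066) against 21369 and 24958 in the lowest. Grouped by UMIs instead, at the DMSO quintiles, Mt1 rose 2.98-fold from the shallowest to the deepest cells in both libraries. Within those groups the ratio of RO-3066 to DMSO lay between 0.220 and 0.254 for Mt1, lower than over all cells, and the deepest group held 51.8% of RO-3066 cells against 20.01% of DMSO cells. Among DMSO cells of like depth, the highest Pf4 group had 4.44 to 5.82 times the Mt1 level of the lowest in all 5 depth groups, so the rise with Pf4 was present at each depth. In RO-3066 only the deepest group held over 10 cells of high Pf4 share (574 cells), and there Mt1 was at 163 CPM against 66.8 in cells of the lowest share. For Mt2, leaving only cells of 15000 to 40000 UMIs (4678 DMSO and 1797 RO-3066 cells) gave a ratio of 0.167 in place of 0.106.

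Cells were also ordered by Mki67 plus Top2a, markers of dividing cells whose summed level peaks in the G2 and M phases. The DMSO quintiles of the summed level were 180, 463, 883 and 1356 CPM, and the groups are ranges and no phases. In DMSO, Mt1 was at 313, 390, 369, 349 and 285 CPM from the lowest to the highest group. In RO-3066 it was at 115, 121, 110.2, 119 and 90.1 CPM. Mt1 was lowest in the cells with most Mki67 and Top2a in both libraries, but the span over these groups was small beside that over Pf4. In RO-3066 those cells also had the lowest Pf4 share, 0.167% against 0.257% to 0.560% in the other groups. Within single Pf4 groups the order was mixed in RO-3066. In the highest Pf4 group Mt1 was at 208 CPM in those cells against 147 CPM in the middle Mki67 plus Top2a group. In the second Pf4 group it was lowest in them, at 54.03 against 54.06 to 88.8 CPM. The part of Pf4 in this order was not tested. The ratio between the libraries lay between 0.298 and 0.367 and was below 1 in 5 of 5 groups. RO-3066 cells were spread unevenly over the groups, with 293 in the lowest and 1277 in the middle one, and 234 DMSO and 67 RO-3066 cells lay within 10% of the lowest limit.

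Mt2 was at 13.4, 16.02, 13.6, 13.3 and 10.3 CPM in DMSO over the same groups and at 3.21, 1.09, 1.52, 1.51 and 0.99 CPM in RO-3066. The first RO-3066 value rests on 23 UMIs (2.04 to 4.82 CPM) and the last on 18. Mtf1 went from 22.3 CPM in the lowest to 17.1 in the highest DMSO group and from 21.2 to 18.7 in RO-3066. Slc30a1 was higher in the highest group than in the middle one, at 4.47 (3.85 to 5.17) against 2.15 CPM (1.70 to 2.68) in DMSO and 4.89 (3.93 to 6.02) against 2.44 (2.08 to 2.84) in RO-3066. The highest group also stood above the second, which was at 2.34 CPM in DMSO (1.84 to 2.93) and at 2.28 CPM in RO-3066 (1.89 to 2.74), with counting intervals apart in both libraries. These contrasts were noticed after looking through 3 groupings.

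**Figure D3:**
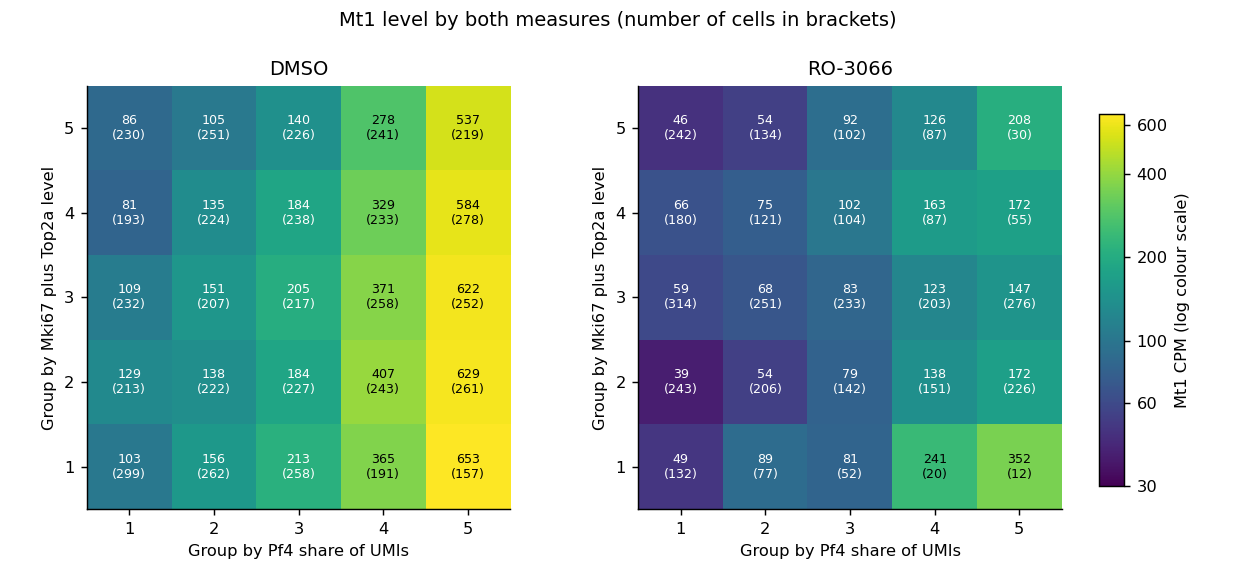
Mt1 CPM (colour, log scale, and the printed value) in 25 combinations of the Pf4 group (x axis) and the Mki67 plus Top2a group (y axis), with the number of cells in brackets, for DMSO (left) and RO-3066 (right). Values climb from left to right in both panels, with 1 step down in the lowest row of RO-3066, and vary less from bottom to top; RO-3066 has only 20 and 12 cells in the last 2 fields of that row.

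With cells divided by both measures at once, 23 of 25 combinations held at least 30 cells of each library. In those, Mt1 lay between 80.5 and 629 CPM in DMSO and between 38.8 and 208 in RO-3066. The RO-3066 level was below the DMSO level beyond counting error in all 23, with ratios from 0.236 to 0.814. For Mt2 this held in 17 of 23. The lower Mt1 level was thus seen at each combination of Pf4 share and Mki67 plus Top2a level with enough cells.

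The gene whose counts varied most like those of Mt1 across cells was Pf4. Likeness was the Pearson correlation of log2 thinned counts plus 1 over 5751 DMSO and 3556 RO-3066 cells, ranked by the mean over both libraries among 3077 genes of at least 50 CPM, and cells of a library share its preparation. Pf4 (r = 0.56 in DMSO and 0.37 in RO-3066) was followed by Tmsb4x, thymosin beta 4, which binds actin monomers (0.51 and 0.34), Itga2b, the platelet integrin alpha IIb (0.43 and 0.298), the small GTPase gene Rap1b (0.44 and 0.28), the lactate dehydrogenase gene Ldha (0.42 and 0.28) and the caveolar gene Cavin2 (0.40 and 0.28). Itga2b was 1.56-fold and Cavin2 1.36-fold higher in RO-3066, and Ldha was at 0.683-fold. None of these 6 genes was as low in RO-3066 as Mt1. Mt1 and Mt2 had r = 0.32 in DMSO and 0.12 in RO-3066, and Mt1 had r within 0.03 of 0 with Mtf1 and with Slc30a1, in counts too sparse to read more from it. For Slc30a1 no gene had a mean r above 0.043.

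Cells ranked by Mt1 plus Mt2 within each library differed in other ways too. In DMSO, from the lowest to the highest of 5 equal groups, median UMIs went from 22331 to 30837.5, the Pf4 share from 0.079% to 1.04%, Mki67 plus Top2a from 938 to 840 CPM and the summed level of 15 hypoxia-induced genes from 864 to 1164 CPM. In RO-3066 the same values went from 29959.5 to 55447 UMIs, from 0.225% to 0.684%, from 744 to 657 CPM and from 602 to 686 CPM. Mtf1 was at 17.8, 18.3, 19.3, 18.95 and 21.5 CPM over the DMSO groups, highest in the cells richest in metallothionein, and between 18.1 and 19.8 with no order in RO-3066. Slc30a1 was between 2.38 and 3.59 CPM in all 10 groups, with no order, and the 2 lowest groups of RO-3066 both held no metallothionein UMI. The metallothionein-rich cells were thus deeper and richer in Pf4 in both libraries.

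Of 12 measured genes among the other zinc transporters, 11 lay within 1.5-fold and 1 was lower in RO-3066. Of 9 further zinc exporters of the Slc30 family, 4 had at least 5 CPM and 4 of these lay within 1.5-fold (median log2 ratio -0.077). Slc30a9 was at 30.2 CPM in DMSO and 22.8 in RO-3066 (0.754-fold, 0.723 to 0.786), and Slc30a5, which loads zinc into the secretory pathway, at 23.8 and 23.7. Of 14 importers of the Slc39 family, 8 were measured, 7 lay within 1.5-fold and 1 was lower, with a median of 0.17. That gene was Slc39a10, a zinc importer of the plasma membrane, at 31.3 and 18.1 CPM (0.578-fold, 0.553 to 0.605), while Slc39a7, which releases zinc from the endoplasmic reticulum, was at 39.1 and 36.3. Beside these, 2.42% of all 9333 genes of at least 5 CPM were lower and 6.55% higher by that factor, and their median was -0.0022.

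A list of copper-handling genes and lists of genes tied to other inducers of metallothioneins were set beside these. The copper list is no list of genes induced by copper. The antioxidant list counts Nfe2l2, the gene of Nrf2 itself, and the glucocorticoid list counts the receptor gene Nr3c1. Of 10 measured copper-handling genes 9 lay within 1.5-fold and 1 was higher, Ccs, the copper chaperone of superoxide dismutase (28.7 and 43.2 CPM, 1.504-fold). Of 12 measured antioxidant genes of the Nrf2 response 11 lay within 1.5-fold, 1 was higher and none lower, with a median of 0.039, and Gclm, a subunit of the enzyme that starts glutathione synthesis, was at 190.1 and 258 CPM. Of 6 measured glucocorticoid-induced genes all lay within 1.5-fold, with a median of 0.33, and Tsc22d3, a standard target of the glucocorticoid receptor, was 1.39-fold higher (29.2 and 40.5 CPM). Of 13 measured hypoxia-induced genes 7 were at least 1.5-fold lower and 1 was higher, with a median of -0.60. Over all genes of at least 5 CPM these shares were 2.42% lower and 6.55% higher. In it Egln3, an oxygen-sensing hydroxylase, was at 33.2 CPM in DMSO and 6.08 in RO-3066 (0.183-fold), Bnip3, a mitophagy receptor, at 92.4 and 26.03, and Ankrd37 at 24.9 and 7.17. The summed level of that list was 1011 CPM in DMSO and 642 in RO-3066, its part in the Mt1 difference was not tested, and the fall of its members had been seen before the list was written.

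**Figure D4:**
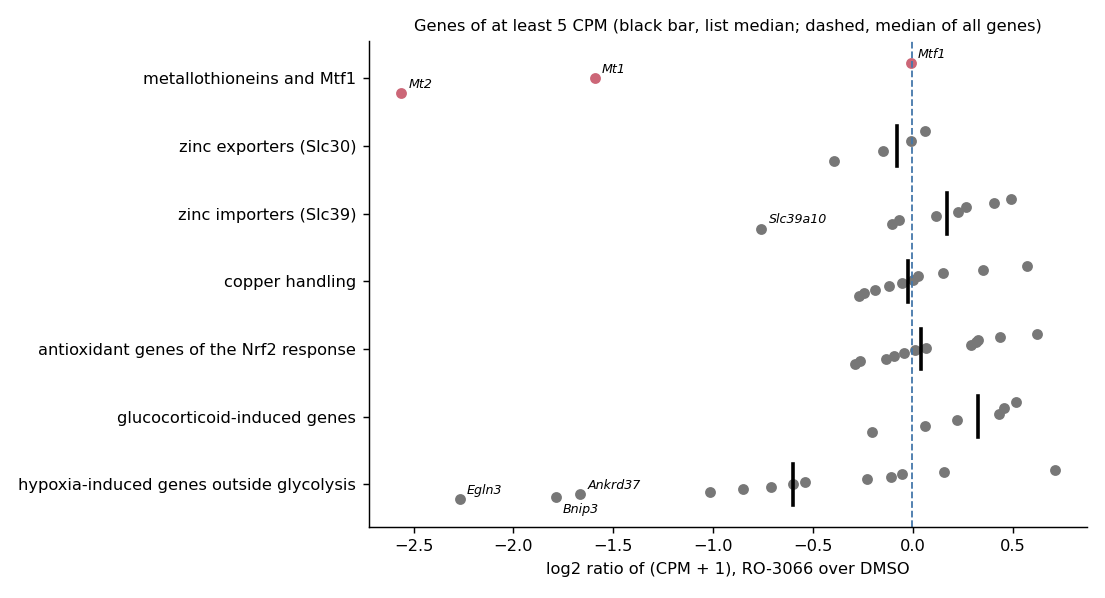
Log2 ratio of CPM plus 1, RO-3066 over DMSO (x axis), of each gene with at least 5 CPM in either library, by list (y axis); black bars are list medians and the dashed line the median of all genes, -0.0022. Mt1 (-1.59) and Mt2 (-2.56) lie far left of the zinc, copper and antioxidant genes, Mtf1 lies at -0.01, and Slc30a1 is not drawn because it was below 5 CPM.

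Markers of other cells were compared as well. Of 12 megakaryocyte markers 11 were measured and 6 were at least 1.5-fold higher in RO-3066, none lower, beside 6.55% of all genes of at least 5 CPM higher and 2.42% lower, while Pf4 itself was at 5138 CPM in DMSO and 4255 in RO-3066. Mt1 was therefore lower in a library in which several platelet genes were higher. The summed levels of erythroid (518 and 873 CPM), lymphoid (39.1 and 65.2 CPM) and endothelial and stromal markers (26.1 and 32.4 CPM) were higher in RO-3066. Few genes made up these sums, so they do not stand for whole cell types. Nkg7 (38.98 and 65.05 CPM) was nearly all of the lymphoid sum. Pecam1 (23.3 and 28.7 CPM) was most of the endothelial and stromal sum, and Hbb-bt with Car2 most of the erythroid sum. In these lists Hbb-bt was 2.29-fold, Car2 1.32-fold, Nkg7 1.67-fold and Pecam1 1.23-fold in RO-3066. The sums of neutrophil and monocyte (145 and 144 CPM), mast cell and basophil (7.62 and 9.16 CPM) and stem cell markers (521 and 551 CPM) hide members that moved in opposite directions. Prtn3 was 0.731-fold and Lyz2 1.596-fold in RO-3066. In the mast cell and basophil list Cpa3 was 4.02-fold, while Gzmb was 0.417-fold and Mcpt8 0.254-fold. Cpa3, Gzmb and Mcpt8 were named after their values were seen. In the stem cell list Ly6a was 0.69-fold, while Kit was 1.49-fold. Cd48 (0.35-fold) was counted in that list and its sum, although stem cells are sorted by its absence. The part of cells holding these markers in the Mt1 difference was not tested.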

How the data were processed

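The authors deposited, for each library, a matrix of raw UMI counts per gene and barcode. Cell Ranger appears as 5.0.1, with mm10, in the submitters' processing notes and as 7.1.0 in the file headers. The treatment of intron reads and of strand is not stated.

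Barcodes were kept from 1000 UMIs and 500 genes upward, with mitochondrial UMIs up to 10%, which left out 26 DMSO and 84 RO-3066 barcodes. Doublets were scored by simulated doublets among 50 neighbours and 302 and 118 cells removed. Kept cells held 175101526 and 163645052 UMIs. Counts were summed and scaled to CPM, log2 ratios used a pseudocount of 1, folds have exact conditional Poisson intervals and shares exact Clopper-Pearson intervals. Members and lists were chosen with earlier results of these data known. Genes named are the 4 members, the 6 most like Mt1, up to 3 per list with the largest ratio at 20 CPM or more, and Pf4, Mki67 and Top2a; other genes are label checks, neighbours of the 2-fold limit, or said to be named after their values were seen. The ratio of summed counts and its interval were tested on simulated counts with counting error only, and thinning on part of the RO-3066 cells. The other steps were not tested in this way. Python 3.11.15, numpy 2.4.6, scipy 1.17.1, pandas 2.3.3 and scikit-learn 1.9.0 were used.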

Additional observations from a re-analysis of the deposited data

How the results depend on the processing

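Mt1 and Mt2 were lower in RO-3066 under all 10 alternatives. The log2 ratio of Mt1, -1.59, became -1.53 with median-ratio scaling, -1.56 with a pseudocount of 5, -1.91 in cells of 15000 to 40000 UMIs and -1.42 with Pf4-share groups given equal weight. That of Mt2, -2.56, became -2.26 with equal weight per cell, -2.25 in thinned cells, -1.51 with a pseudocount of 5, -1.92 in cells of 15000 to 40000 UMIs and -2.22 with Pf4-share groups given equal weight. Mtf1 (-0.01) turned to 0.045 with median-ratio scaling and 0.00078 with equal Pf4-share groups, and Slc30a1 (-0.17) to 0.0042 with equal Mki67 plus Top2a groups. The cause of these shifts was not tested. Genes at least 2-fold lower numbered 72 at a minimum of 5 CPM, 14 at 100 CPM, 26 with equal weight per cell and 23 in thinned cells, and genes at least 2-fold higher 165 at 5 CPM and 5 at 100 CPM. The share of cells with Mt1 was lower in RO-3066 by 22.7 percentage points (a difference of -20.2 when thinned to 15000 UMIs and -13.1 unthinned). The Mt1 Fano factor of RO-3066 over DMSO, 0.461, was 0.584 at 5000 UMIs. For Mtf1 the difference in share turned to 0.22 at 15000 UMIs, 10.5 unthinned and 0.767 with doublets kept, for Slc30a1 to 1.45 unthinned, and the Fano ratio of Slc30a1 (1.01) to 0.9996 at 5000 UMIs. The Mt1 ratio was -1.79 in the highest of 3 Pf4 groups and -1.56 in the lowest Mki67 plus Top2a group with doublets kept. No paired analysis was possible because each treatment had 1 library, and no library could be left out. Depth limits Slc30a1 (554 and 441 UMIs) and, in RO-3066, Mt2 (229 UMIs).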

Other observations

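A pair of low-level zinc genes, named after their values were seen, stood higher in RO-3066. Mt3, a metallothionein best known from brain, was at 0.697 CPM in DMSO (122 UMIs) and 2.14 CPM in RO-3066 (350 UMIs), 3.07-fold (2.49 to 3.80), the opposite of Mt1 and Mt2. The zinc importer gene Slc39a4 was at 0.286 CPM (50 UMIs) and 1.33 CPM (217 UMIs), 4.64-fold (3.40 to 6.45). Mt4, a metallothionein of squamous epithelium, had no UMI in either library. The genes that varied most against Mt1 between cells, also named after their values were seen, were the histone variant gene H2afy (r = -0.47 in DMSO and -0.23 in RO-3066), Vim (-0.42 and -0.26) and Stmn1 (-0.45 and -0.23).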
